A study of Mus musculus with 12 samples.

Results

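The total RNA of mouse zygotes that received FLAG-tagged Lsm1 mRNA was compared with that of zygotes whose labels name untagged Lsm1 mRNA. The libraries were chosen by their labels as the Input libraries of a RIP-seq experiment, in which part of each lysate was sequenced without any pull-down. These are 4 of the 12 libraries of the series, 2 from zygotes given Lsm1_3XFlag mRNA (FLAG Input) and 2 from the control zygotes (control Input). The other libraries are 4 anti-FLAG immunoprecipitates (IP) of the same groups and 4 libraries of zygotes from an siRNA experiment. Per the labels, all embryos were of the strain B6D2F1, from superovulated females of 8 to 10 weeks mated with males. The labels say that zygotes were taken 18 to 20 h after hCG and injected with RNA. For RIP-seq, the paper describes mRNA injection into early zygotes, which were cultured for some hours and collected as late zygotes. For the knockdown, it describes siRNA injection into immature (GV-stage) oocytes, then maturation and fertilization in vitro, so the siRNA libraries follow another scheme. Pools of zygotes were lysed, so a library is an average over many embryos, and the injected RNA came on top of the endogenous gene, which no group lacks. The titles of the control libraries name IgG, whereas their treatment fields name untagged Lsm1 mRNA. Nothing in the labels says that the 2 libraries of a group came from separate injection days, so p-values measure the spread between these libraries only.

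LSM1 is the subunit that defines the cytoplasmic LSM1-7 ring. The ring binds the shortened 3′ ends of deadenylated RNAs together with a PAT1 protein and promotes removal of the 5′ cap, after which the exonuclease XRN1 degrades the RNA. In the zygote, large stores of maternal mRNA are being cleared while transcription from the embryonic genome starts and repeats such as MERVL and LINE1 are expressed. The comparison asks which RNAs differ in abundance when additional Lsm1 mRNA is present, before any selection for RNA bound to LSM1.

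The injected RNA and the satellite of interest are marked here by primers of the study. The first pair below bounds the Lsm1 coding sequence, with the start codon and the complement of the stop codon in capitals. The second pair lies inside that sequence and the third amplifies major satellite RNA, the repeat GSAT_MM in the values.
Lsm1_cds_F: ATGaactatatgcccggcacc
Lsm1_cds_R: TCAgtactcgtccagagtgtctg
Lsm1-F: tgctaacttagtgctccatcag
Lsm1-R: actctccttctccaggtctatt
MajSat-F: tggaatatggcgagaaaactg
MajSat-R: aggtccttcagtgggcattt
All are given 5′ to 3′. On the GRCm38 assembly, which is mm10, Lsm1 lies on the plus strand of chromosome 8 from 25785318 to 25803975 and has 4 exons. Lsm1_cds_F matched the plus strand at chr8:25785672-25785692 in exon 1, and Lsm1_cds_R matched the minus strand at chr8:25802076-25802098 in exon 4. They bound a coding sequence of 402 nt, which is 17% of the RefSeq transcript of 2360 nt. Lsm1-F spans the junction of exons 2 and 3 and Lsm1-R that of exons 3 and 4, at positions 114 to 135 and 228 to 249 of the coding sequence. The reads of injected and endogenous Lsm1 are counted on the same feature.

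Lsm1 itself was present in large excess in the FLAG Input and not in the control Input. In the FLAG Input, Lsm1 took 254886 and 411509 estimated counts, or 0.993% and 1.47% of the library, which is 9931 and 14730 CPM (counts scaled to a common library size). In the control Input it had 516 and 413 estimated counts, or 16.34 and 16.13 CPM. The groups were far apart, and the control libraries labelled as given untagged Lsm1 mRNA held no excess of Lsm1 RNA. What the control zygotes received is therefore in doubt, every direction below rests on their label, and an effect of tagged Lsm1 cannot be told apart from one of injecting an mRNA. Normalized by library composition, the level was 12400 ± 3700 CPM (SD, n = 2) in the FLAG Input and 16.3 ± 0.18 CPM (SD, n = 2) in the control Input. This is a log2 fold change of 9.57 with a standard error of 0.28 and an adjusted p of 8.7e-05 from the quasi-likelihood test of edgeR. The call was lost when either control library was left out, with an adjusted p of 0.093 without control Input replicate 1 and 0.11 without replicate 2, while the log2 fold change was 9.56 and 9.58.

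**Figure D1:**
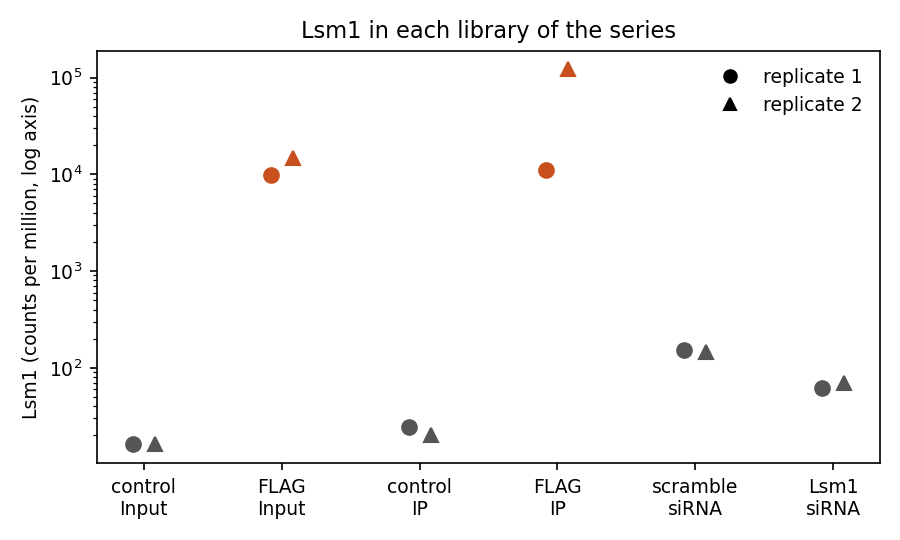
Lsm1 in CPM on a log axis for each of the 12 libraries, with circles for replicate 1 and triangles for replicate 2. The FLAG Input libraries sit at 9931 and 14730 CPM and the control Input libraries at 16.34 and 16.13 CPM.

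Lsm1 stood out in every library of zygotes given the tagged mRNA. In the FLAG IP it had 11130 and 121400 CPM, against 24.56 and 20.19 CPM in the control IP. Zygotes of the scramble siRNA group had 152.3 and 144 CPM and those of the Lsm1 siRNA group had 61.68 and 69.67 CPM. Their libraries were made with another kit, so these levels are not compared with the Inputs.

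Of 25091 genes and repeats, 14592 passed the filter on low counts and were tested between FLAG and control Input. The Input libraries held 25612092 to 31586450 estimated counts. At an adjusted p under 0.05, 1 feature was higher in the FLAG Input, which is Lsm1, or 0.00685% of those tested, and 0 were lower. At an unadjusted p under 0.05 the counts were 394 higher (2.7%) and 187 lower (1.28%). DESeq2 called 18 features higher (0.122%) and 1 lower (0.00679%), and limma on log2 (TPM + 1) called 29 higher (0.199%) and 14 lower (0.0959%). Without the filter on low counts edgeR called 14 higher (0.0656%) and 3 lower (0.0141%), and with a stricter filter 1 higher (0.00888%) and 0 lower. In such pooled lysates, fewer embryos with an RNA and less of it per embryo cannot be told apart. Both FLAG Inputs lay above both control Inputs for 16.7% of the tested features and below them for 16.8%, and these shares are the background for the counts that follow.

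FLAG Input replicate 1 stood apart from the other 3 Inputs. Its Pearson correlation with them across tested features, on log2 (CPM + 1), was 0.984 to 0.986, whereas the other 3 correlated with each other at 0.995 to 0.996. Of 7373 features above 10 CPM in the other 3 Inputs, 26 were over 4-fold lower in it than in any of them, and no such feature was found for any of the other 3 libraries. Without it, 57 features were called higher (0.391%) and 11 lower (0.0754%) in the FLAG Input. Without FLAG Input replicate 2, which leaves replicate 1 alone against the control pair, 750 were called higher (5.14%) and 968 lower (6.63%). In each of these fits the single FLAG library is assumed to vary like the controls. Without control Input replicate 1 or 2, 0 features were called, with 329 and 186 at an unadjusted p under 0.05.

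No rise was called for the other subunits of the ring and its partners. Besides Lsm1, 0 of the other 9 listed genes of the LSM rings and PAT1 passed the adjusted threshold. Lsm3, a subunit shared by the cytoplasmic and the nuclear ring, had 63.3 and 55.8 CPM in the FLAG Input and 65.8 and 61.8 CPM in the control Input. Lsm6, also shared, had 41.9 and 37.2 CPM against 42.2 and 40.4 CPM. Lsm2, Lsm4, Lsm5 and Lsm7 had log2 fold changes of -0.15, 0.01, -0.13 and -0.04, and Lsm8, which replaces LSM1 in the nuclear ring, one of 0.08 with a standard error of 0.43 at about 1 CPM. The groups overlapped for each of these 7 subunits. Patl1, the PAT1 protein of somatic cells, had 63.4 and 60.6 CPM in the FLAG Input and 61.5 and 60.4 CPM in the control Input. Patl2, the PAT1 protein of oocytes, was the exception among these genes, with 21.2 and 21.9 CPM in the FLAG Input and 35.1 and 33.8 CPM in the control Input. The groups did not overlap, and the log2 fold change was -0.67 with a standard error of 0.15, but the adjusted p was 0.95 (unadjusted p = 0.0019 from edgeR). Without FLAG Input replicate 1 the log2 fold change of Patl2 was -0.64, and without replicate 2 it was -0.71.

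Genes that act with or before the ring in mRNA decay were not called in either direction. In the list of decapping and 5′-to-3′ decay, 19 genes were tested, 0 were called, and the log2 fold changes ran from -1.03 to 0.67 with a median of 0.01. Dcp2, the decapping enzyme, had 283 and 329 CPM in the FLAG Input and 331 and 334 CPM in the control Input. Edc4, a scaffold of the decapping complex, had 226 and 250 CPM against 265 and 286 CPM. Xrn1 had 43.5 and 42 CPM against 40.4 and 41.9 CPM, and the helicase Ddx6 had 39.9 and 49.6 CPM against 52.2 and 46.6 CPM. Among 24 deadenylases and adaptors the log2 fold changes ran from -0.3 to 0.28 with a median of 0, and 0 were called. Btg4, the adaptor that recruits the CCR4-NOT deadenylase to maternal mRNA, had 1870 and 1960 CPM in the FLAG Input and 2020 and 1810 CPM in the control Input, and Cnot3, a subunit of that deadenylase, had 1010 and 1080 CPM against 1110 and 1150 CPM. The lists of maternal mRNA storage and tailing (22 genes) and of the exosome and nonsense-mediated decay (26 genes) had medians of -0.11 and -0.14, ranges of -0.48 to 0.7 and of -0.63 to 0.31, and 0 called.

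Most repeats had higher values in the FLAG Input, although no single repeat passed the adjusted threshold in edgeR. They took 0.253% and 0.331% of the counts in the FLAG Input and 0.193% and 0.147% in the control Input, so the groups did not overlap. Of 347 repeats, 237 were tested, and 213 of them had a log2 fold change above 0. The median was 0.64, beside 0 over all tested features. Both FLAG Inputs lay above both control Inputs for 153 repeats, or 64.6%, beside 16.7% of all features, and below them for 2. At an unadjusted p under 0.05 in edgeR, 87 repeats were higher and 0 were lower, beside 2.7% and 1.28% of all features. DESeq2 called 17 repeats higher and 0 lower, beside 0.122% and 0.00679% of all features. Without the filter on low counts edgeR called 13 repeats higher, beside 0.0656% of all features, and all of those 13 were among the 17. The median of the repeats was 0.57 without FLAG Input replicate 1 and 0.68 without FLAG Input replicate 2. It was 0.81 without control Input replicate 1 and 0.56 without control Input replicate 2. A repeat feature stands for all genomic copies of a consensus, and reads of related consensus sequences can be split between them, so related repeats are not independent of each other.

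**Figure D2:**
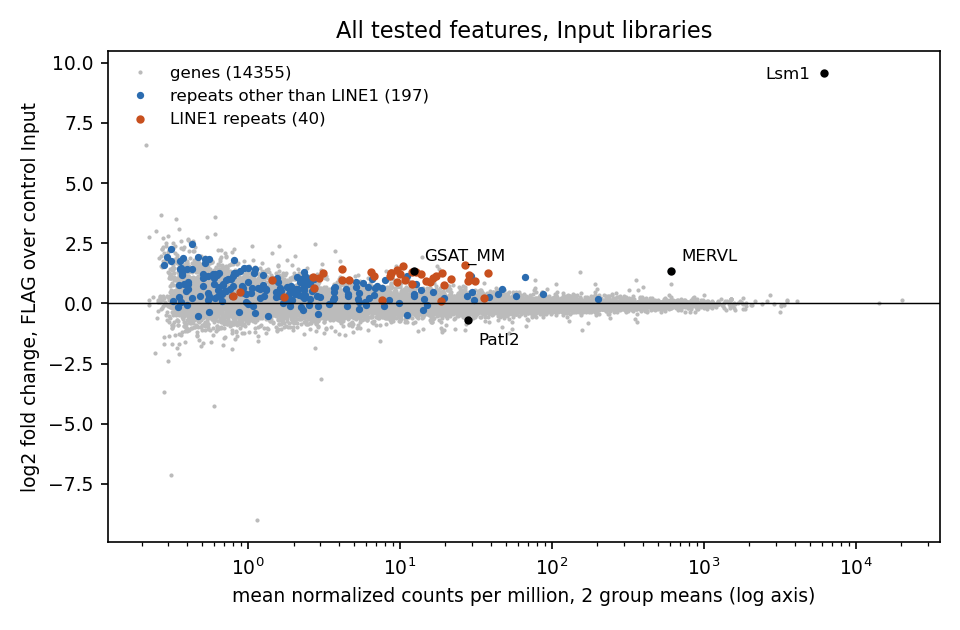
Each point is 1 of 14592 tested features, with the mean normalized CPM of the 2 group means on a log axis and the log2 fold change of FLAG over control Input. Lsm1 lies alone at 9.57, and the 40 LINE1 repeats all lie above 0 while most genes centre on 0.

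LINE1 is an autonomous retrotransposon that is active in the early embryo. Of 45 LINE1 repeats, 40 were tested, and all 40 had a log2 fold change above 0, from 0.11 to 1.59 with a median of 1.04. The median was 0.85 to 1.27 when 1 library was left out. Both FLAG Inputs lay above both control Inputs for 37 of them, or 92.5%. The summed level was 616 and 743 CPM in the FLAG Input and 385 and 296 CPM in the control Input. L1MdTf_I, of the youngest mouse lineage, had 44.1 and 36.9 CPM in the FLAG Input (1154 and 1015 estimated counts) and 14.2 and 12.6 CPM in the control Input (454 and 318 estimated counts). Its log2 fold change of 1.59 with a standard error of 0.17 had an adjusted p of 0.1 in edgeR and of 1.1e-10 in DESeq2. The log2 fold change of L1MdTf_I was 1.47 without FLAG Input replicate 1 and 1.71 without FLAG Input replicate 2. L1MdTf_III had 53.4 and 53.7 CPM against 25.7 and 18.9 CPM, with an adjusted p of 0.38. L1MdGf_II had 14.7 and 17 CPM against 6.69 and 4.05 CPM, and L1MdA_III had 33.5 and 46.1 CPM against 19.1 and 15.4 CPM, with an adjusted p of 0.84 for each. In all of these, each FLAG Input was above each control Input.

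LINE1 lineages of different age had different medians. For the 12 repeats of the Tf, A and Gf lineages the median log2 fold change was 1.27 and the groups did not overlap in any of them. For the 13 of the F, Fanc, V, N and Mus lineages it was 1.14, again with no overlap in any. For the 12 tested repeats of the older Lx lineages it was 0.65, with no overlap in 9. L1Lx_IV had 21.1 and 23.7 CPM in the FLAG Input and 12.4 and 9.37 CPM in the control Input, a log2 fold change of 1.04. Whether the lineages differ was not tested.

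IAP elements, endogenous retroviruses of the ERV2 class, had higher values in the FLAG Input in all of their internal parts and some of their long terminal repeats. Of 23 tested IAP repeats, 20 had a log2 fold change above 0, and the median was 0.8. IAPEZI, the internal part of an IAP, had 102 and 79.4 CPM in the FLAG Input and 44 and 41.6 CPM in the control Input, a log2 fold change of 1.08 with a standard error of 0.15 and an adjusted p of 0.38. IAPLTR1a_I_MM had 46.1 and 35.3 CPM against 19.9 and 16.7 CPM, and IAPEY3_I had 17.1 and 13.5 CPM against 7.25 and 6.63 CPM. All 9 internal parts, picked by their names, had no overlap between groups, with a median of 1.13. Of the 13 long terminal repeats, 5 had both FLAG Inputs above the controls. Their median was 0.29, with a range of -0.43 to 1.91. At an unadjusted p under 0.05 in edgeR, 2 of the 13 were higher, beside 2.7% of all features. The internal parts ran from 0.71 to 1.47, so the largest value was that of a long terminal repeat, IAPLTR4, with 0.496 and 0.437 CPM against 0.156 and 0.0794 CPM. IAPLTR1a_MM had 7.37 and 6.26 CPM in the FLAG Input and 6.69 and 4.96 CPM in the control Input, and IAPEY3_LTR had 1.03 and 3.89 CPM against 4.53 and 2.06 CPM. This split was seen after the values were known and was not tested. Other ERV2 repeats (115 tested) and ERV1 repeats (34 tested) had medians of 0.55 and 0.44.

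Among satellites, major satellite RNA had higher values in both FLAG Inputs. GSAT_MM, which comes from pericentromeric heterochromatin, had 14.5 and 21.4 CPM in the FLAG Input (380 and 587 estimated counts) and 8.41 and 5.48 CPM in the control Input (269 and 138 estimated counts). The groups did not overlap. The log2 fold change was 1.36 with a standard error of 0.28, with an adjusted p of 0.95 (unadjusted p = 0.0013) in edgeR and an adjusted p of 0.01 in DESeq2. Without FLAG Input replicate 1 the log2 fold change was 1.62, and without replicate 2 it was 1.04. SQR4_MM, the other of the 7 satellites that was tested, had 0.611 and 0.618 CPM against 0.438 and 0.556 CPM, and its log2 fold change was 0.31 with a standard error of 0.5. B2, the only SINE that was tested, had 7.56 and 7.82 CPM against 5.35 and 4.13 CPM, a log2 fold change of 0.7.

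MERVL, a retrovirus-like repeat expressed around the onset of embryonic transcription, differed between replicates as much as between groups. It had 385 and 1370 CPM in the FLAG Input and 459 and 238 CPM in the control Input, so only FLAG Input replicate 2 was high. The log2 fold change was 1.33 with a standard error of 0.92 and an adjusted p of 0.95. Its long terminal repeat, MERVL_LTR, had 0.955 and 2.33 CPM against 0.844 and 0.357 CPM, on 9 to 64 estimated counts.

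**Figure D3:**
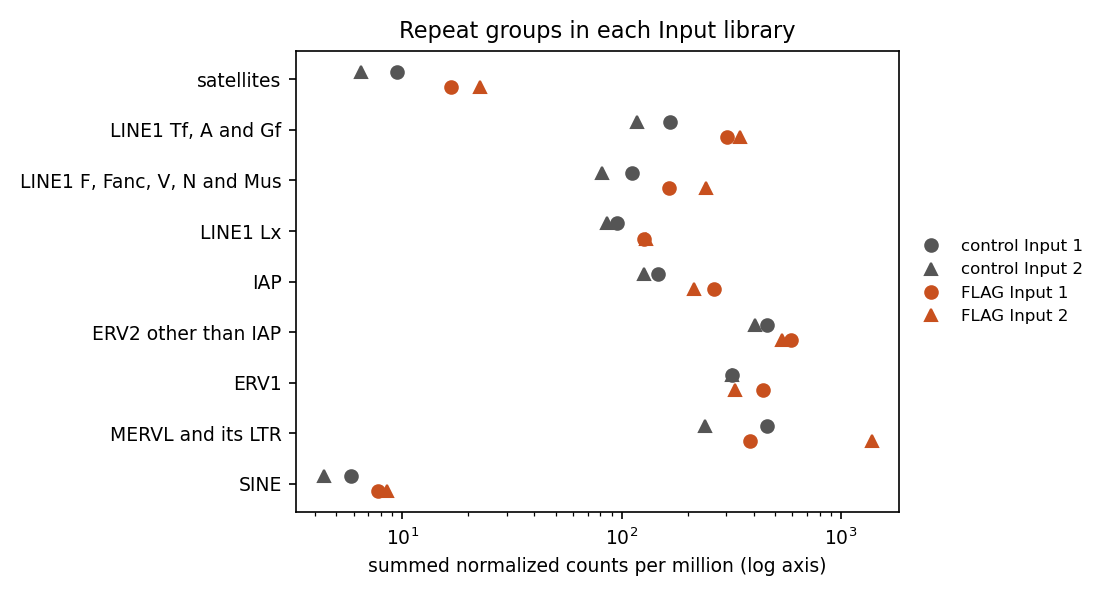
Summed normalized CPM of the repeats in each group on a log axis, for each of the 4 Input libraries. In every group plotted other than MERVL both FLAG Inputs lie above both control Inputs, while in MERVL FLAG Input replicate 1 lies between the controls.

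Other RNAs of low abundance also had medians above 0, smaller than those of the repeats. Among features other than repeats, the median log2 fold change was 0.28 for 2252 features with a mean under 1 CPM, 0.11 for 2180 features from 1 to 3 CPM, and between -0.05 and -0.01 in all bins above 3 CPM. Among repeats it was 0.81 and 0.55 in the lowest 2 bins, and 0.64 for 44 repeats from 3 to 10 CPM and 0.91 for 32 repeats from 10 to 30 CPM. At 10 to 30 CPM, both FLAG Inputs were above both controls for 78.1% of repeats and 10.6% of other features. Long noncoding RNAs (743 tested) had a median of 0.19 and small nucleolar RNAs (69 tested) one of 0.22, and 0 of each were called. The part of low abundance in the difference of the repeats was not tested.

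The summed levels of markers of other cells rested mostly on a single gene per list, while some markers of low level had higher values in the FLAG Input. The summed level of 20 cumulus and granulosa cell markers was 190 and 186 CPM in the FLAG Input and 190 and 198 CPM in the control Input, almost all of it from Serpine2, which had 159 and 165 CPM against 170 and 176 CPM. The 17 sperm markers summed to 328 and 379 CPM against 340 and 399 CPM. Prm1, a protamine, was at 0 in all 4 libraries and Prm2 had 6.19 and 6.26 CPM against 7.1 and 7.54 CPM. The 22 blood and oviduct markers summed to 197 and 165 CPM against 217 and 189 CPM, most of it from Cdh1, an adhesion gene that oocytes express, with 188 and 156 CPM against 209 and 183 CPM. The adult globin Hbb-bs was at 0 in all 4 libraries. At levels under 1 CPM, Krt18 had 0.802 and 0.582 CPM in the FLAG Input and 0.0625 and 0.159 CPM in the control Input, Vcan had 0.955 and 0.546 CPM against 0.156 and 0.0794 CPM, and Col1a2 had 12 and 11 estimated counts against 0 and 0. In these 3 genes, named after their values were seen, the groups did not overlap. Vcan is of the cumulus and granulosa list, and Krt18 and Col1a2 are of the blood and oviduct list. All 3 passed the filter on low counts only through the FLAG Input. None passed the adjusted threshold in edgeR. In limma, Krt18 had an adjusted p of 0.0081 on log2 (TPM + 1) and of 0.0066 on log2 (TPM + 0.1). Krt8, a keratin of the blood and oviduct list, went the other way with overlap, at 1.95 and 4.77 CPM against 6.04 and 3.85 CPM. Among the markers of cumulus, sperm, and blood and oviduct, 9, 6 and 8 genes passed the filter, with 3, 1 and 5 above both controls in both FLAG Inputs. For the 8 blood and oviduct markers that share is 62.5%, beside 16.7% of all features, and their median was 0.94 on the log2 scale. Before adjustment in edgeR, 3 of them were higher and 0 lower at a p under 0.05, beside 2.7% and 1.28% of all features. Krt18 and Col1a2 passed the filter only through the FLAG Input, and such genes raise these values. The share, median and counts of this list are therefore no support for a difference. The medians of the cumulus and sperm markers were 0.2 and -0.03, and the highest cumulus marker was Vcan with a log2 fold change of 2.58. The part of such cells in the results was not tested.

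Lists of maternal genes had medians near 0. Zbed3, a component of the subcortical maternal complex and among the most abundant RNAs, had 14100 and 14400 CPM in the FLAG Input and 14800 and 13700 CPM in the control Input. The lists of the subcortical maternal complex and oocyte NLRP genes (19 tested), oocyte identity and zona pellucida (27 tested), the cell cycle of the zygote (39 tested) and replication licensing and S phase (34 tested) had medians of -0.01, -0.02, -0.03 and -0.06, with 0 called in each. Two-cell and early zygotic genes (23 tested) had a median of 0.22, with 2 above both controls in both FLAG Inputs (8.7%, beside 16.7% of all features) and 0 below. That median rested on FLAG Input replicate 2, since it was -0.06 without it and 0.34 without FLAG Input replicate 1, and it was 0.06 without control Input replicate 2. Histones of the replication-dependent type and Slbp (33 tested) had a median of 0.08, and Slbp, which binds their mRNA, had 1200 and 1260 CPM against 1240 and 1260 CPM.

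No gene of H3.3 and heterochromatin passed the adjusted threshold. In that list 30 genes were tested, with a median of -0.1, and 8 were below both controls in both FLAG Inputs, or more than the 16.8% of all features, while 1 was above. Atrx, which deposits H3.3 in heterochromatin with Daxx, had 722 and 771 CPM in the FLAG Input and 788 and 898 CPM in the control Input. Daxx had 43.9 and 58.4 CPM against 60.1 and 69.4 CPM, a log2 fold change of -0.34 with a standard error of 0.17. The H3.3 genes H3f3a and H3f3b had 386 and 289 CPM against 313 and 310 CPM, and 443 and 448 CPM against 482 and 437 CPM. Suv39h2, a methyltransferase of H3K9, had 186 and 185 CPM against 191 and 183 CPM, and Cbx1, which encodes the heterochromatin protein HP1β, had 158 and 171 CPM against 158 and 203 CPM. For the last 4 of these genes the groups overlapped.

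Lists of housekeeping machinery had medians slightly below 0. Of 72 tested genes of the respiratory chain and ATP synthase, 8 had a log2 fold change above 0, and the median was -0.21. In both FLAG Inputs, 33 of them were below both controls and 0 above, beside 16.8% below and 16.7% above over all features. The same shares are the background for the other lists here. For 78 cytosolic ribosomal proteins the median was -0.11, with 28 below and 5 above, and Rpl4 had 181 and 201 CPM against 218 and 217 CPM. The core spliceosome (48 tested) and translation initiation (41 tested) each had a median of -0.13, with 13 and 16 genes below both controls. Eif2s2, a subunit of the factor that brings the initiator tRNA, had 453 and 525 CPM against 560 and 584 CPM. Small RNA machinery (21 tested) and m6A factors (16 tested) had medians of -0.11 and -0.08. In none of these lists did a gene pass the adjusted threshold, and the median of the respiratory chain was -0.11 without control Input replicate 1 and -0.26 without control Input replicate 2.

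No gene in the lists of foreign RNA sensing, stress and p53 was called, as was the case for every feature other than Lsm1. Of 34 sensors of foreign RNA and interferon targets, 20 passed the filter, 0 were called and the median was 0.07. In both FLAG Inputs, 5 of the 20 were above both controls (25%, beside 16.7% of all features) and 1 below. Ddx58, the sensor RIG-I, had 37.8 and 36.1 CPM in the FLAG Input and 37.9 and 29.8 CPM in the control Input. Oas1a, an antiviral synthetase, was at 11 and 12 estimated counts against 3 and 4, and passed the filter only through the FLAG Input. Its log2 fold change was 1.76 with an adjusted p of 0.95 in edgeR. The integrated stress response and unfolded protein response (20 tested) had a median of 0.11, and its sensor Ern1 had 692 and 669 CPM against 741 and 765 CPM. The p53 pathway (17 tested) had a median of 0.2, with 0 genes called. In both FLAG Inputs, 7 of its genes were above both controls (41.2%, beside 16.7% of all features) and 0 below. The p53 inhibitor Mdm4 had 1890 and 1710 CPM against 1610 and 1750 CPM.

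Some heat shock chaperones had lower values in the FLAG Input, without passing the adjusted threshold. Hspa8, the constitutive HSP70, had 214 and 334 CPM in the FLAG Input and 444 and 418 CPM in the control Input, a log2 fold change of -0.65 with a standard error of 0.2 and an adjusted p of 0.95. Hspa4, its exchange factor, had 116 and 153 CPM against 166 and 191 CPM, and Dnaja1, its cochaperone, had 480 and 512 CPM against 663 and 566 CPM. In these 3 the groups did not overlap. Hsp90aa1 had 2550 and 3100 CPM against 3100 and 4060 CPM. The 16 tested chaperones summed to 4610 and 5520 CPM against 5730 and 6760 CPM, so both FLAG Inputs lay below both controls. Their median log2 fold change was -0.05. At an unadjusted p under 0.05 in edgeR there were 3 lower and 0 higher, beside 1.28% and 2.7% of all features. In both FLAG Inputs, 4 of the 16 were below both controls and 1 above, beside 16.8% and 16.7% of all features. The median was 0.06 without control Input replicate 2. Hspa8, Hspa4 and Dnaja1 were named after their values were seen.

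**Figure D4:**
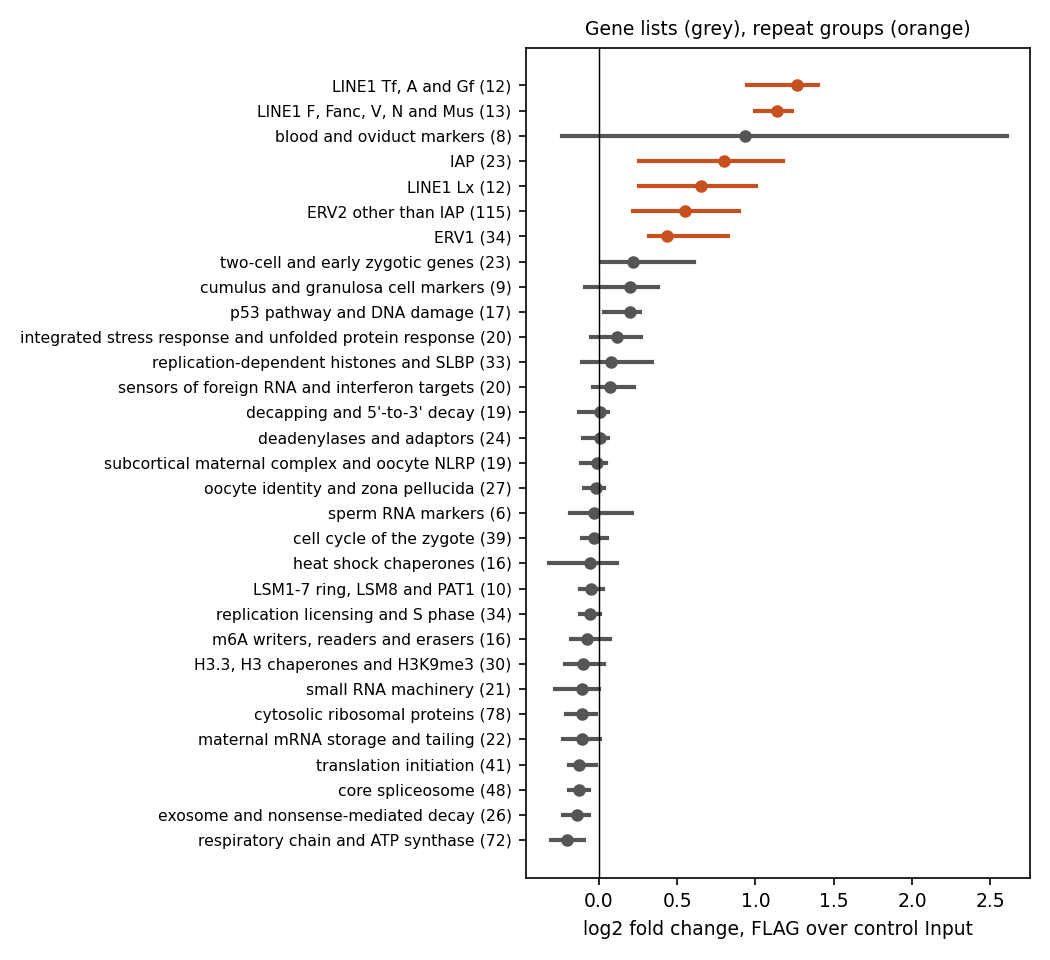
Median (point) and interquartile range (line) of the log2 fold change of FLAG over control Input for each gene list in grey and each repeat group in orange, with the number of members tested in parentheses and at least 6 per list. The LINE1 lineages Tf, A and Gf lie at 1.27 and the lineages F, Fanc, V, N and Mus at 1.14. The respiratory chain lies at -0.21, beside a median of 0 over all features (vertical line).

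Among lower features averaging 50 or more counts in the control Input, with no overlap between groups, those with the smallest p after Patl2 were Clca3a2, Gnl2, Tmx4 and Eif6. Gnl2, a GTPase of ribosome assembly, had 109 and 117 CPM in the FLAG Input and 142 and 164 CPM in the control Input, with a log2 fold change of -0.44 and an adjusted p of 0.95. Eif6, which keeps ribosomal subunits apart, had 78.2 and 100 CPM against 125 and 125 CPM, with a log2 fold change of -0.49. Clca3a2 had 0.573 and 0.618 CPM against 2 and 1.47 CPM, and Tmx4, a thioredoxin-related membrane protein, had 1.34 and 2.15 CPM against 3.53 and 4.17 CPM. In each of these the groups did not overlap. A RefSeq transcript that matched no gene also met these conditions and is not described.

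The IP libraries and the siRNA libraries give the same features other values, set side by side here without a test of their likeness. The IPs came from the same lysates as the Inputs. In the FLAG IP over the control IP, 0 features passed the adjusted threshold in edgeR, with a median log2 ratio of 0.21 over all features and of 2.25 over 45 LINE1 repeats. Both FLAG IPs were above both control IPs for all 45, beside 26.8% of all features. GSAT_MM had a log2 ratio of 1.9 with an adjusted p of 0.48. In zygotes of the Lsm1 siRNA group over those of scramble siRNA, GSAT_MM had a log2 fold change of 3.93 with an adjusted p of 0.052 from edgeR. There, 17 LINE1 repeats were tested, with a median of 0.75 and 0 called, and both knockdown libraries were above both controls for 8 of them, beside 29.3% of all features. In that comparison 6.59% of 11335 tested features were called higher and 5.23% lower. MERVL rose there, with a log2 fold change of 1.85 and an adjusted p of 0.016 from edgeR. Patl2 had a log2 fold change of -0.28 with an adjusted p of 0.62 there.

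Of the genes that set FLAG Input replicate 1 apart, several were nearly absent from that library alone. Bfsp1, a gene of lens intermediate filaments, had 0.458 CPM in it, against 254 CPM in FLAG Input replicate 2 and 205 and 237 CPM in the control Inputs. Pnpla3, a lipid hydrolase, had 1.18 CPM against 200 CPM in replicate 2, and Pxdn, a peroxidase of the extracellular matrix, had 0.153 CPM against 71.2 CPM. The lowest was Pknox2, a homeobox gene, with 0.0764 CPM against 28.2 CPM, and the highest was Triobp, an actin-binding gene, with 85 CPM against 460 CPM. None of the 26 genes had an unadjusted p under 0.05, since the FLAG libraries disagreed. In the IP libraries, 22 of the 26 were lowest in FLAG IP replicate 1, and 10 were over 4-fold below the other 3 IPs. How many of all features were lowest there was not counted. Protein-coding genes together summed to 535000 CPM in FLAG IP replicate 1 and 1190000 CPM in FLAG IP replicate 2. In the control IPs they summed to 969000 and 1080000 CPM, so protein-coding genes together were also lower in FLAG IP replicate 1. Its TMM factor was 1.51, against 0.783 to 0.964 in the other IPs, which scales the sums and the single genes alike. Whether the 26 genes were lower than this general shift was not tested. Bfsp1 had 2.55 CPM in FLAG IP replicate 1 and 148 CPM in FLAG IP replicate 2.

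**Figure D5:**
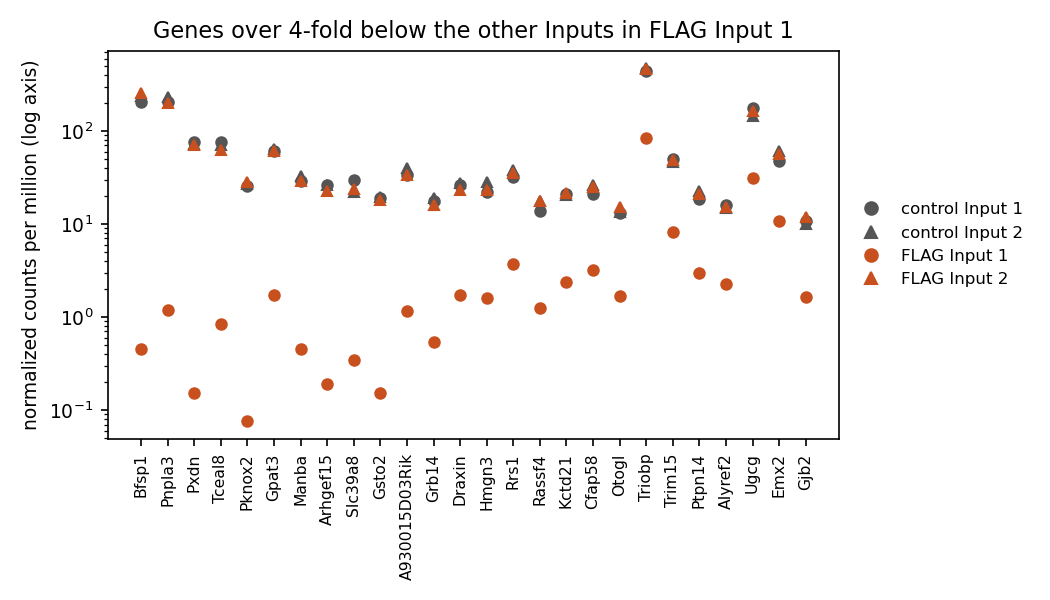
Normalized CPM on a log axis for the 26 genes over 4-fold lower in FLAG Input replicate 1 (orange circles) than in each other Input library. The other 3 Inputs nearly coincide for each gene, as for Bfsp1 with 0.458 CPM in FLAG Input replicate 1 and 205 to 254 CPM in the others.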

How the data were processed

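Reads of Input libraries from whole lysates were used, 2 per group. The authors trimmed reads and quantified them with Salmon, per the labels on mm10, against RefSeq transcripts and repeat consensus sequences. The deposited files hold estimated counts, of which 57.4% of nonzero Input values are not whole (tolerance 1e-06), and TPM values. The labels name Trimmomatic and FastQC without versions, whereas the methods name Cutadapt for trimming. Libraries were made with a stranded total RNA kit. Of 37366 transcripts, 37072 were matched to a gene of GRCm38.p6 and 294 were kept as features of their own, beside 347 repeats. Estimated counts were summed by gene and rounded to whole counts.

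Features passing filterByExpr entered a quasi-likelihood fit in edgeR 4.0.16 in R 4.3.3 (robust, TMM factors of 0.984 to 1.02, Benjamini-Hochberg adjustment over all 14592 tested features, threshold 0.05). The common dispersion was 0.034. Levels are TMM-normalized CPM, except for Lsm1 in all libraries, which is in plain CPM. IP and siRNA libraries were fitted separately in the same way. Alternatives used DESeq2 1.42.0 and limma 3.58.1 on log2 (TPM + 1) and log2 (TPM + 0.1). The members and lists were chosen with earlier results of these data known. The rule for naming genes took Lsm1, up to 12 called features per direction with a mean of at least 50 counts and no overlap, or else the 6 with the smallest p, up to 3 called or the 2 most abundant genes per list, satellites and MERVL, genes of the study, and 6 other repeats. Not all of these are described. Other LSM, decay, chaperone and marker genes, Oas1a, B2, the IAP long terminal repeats and the genes low in FLAG Input replicate 1 were named after their values were seen. No molecular identifiers are named in the sources used here, so counts are not independent molecules. The test was checked on simulated counts.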

Additional observations from a re-analysis of the deposited data

How the results depend on the processing

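Each group held 2 libraries. In counts simulated on the 14592 features of this comparison, edgeR recovered 53 of 100 changes of 2-fold and 100 of 100 of 4-fold, with 6 false calls. The simulation gave all features 1 common dispersion and changed only features with more than about 100 counts. It held no library that stood apart as FLAG Input replicate 1 did, so these shares need not hold for the real libraries. The number of features called higher and lower was 1 and 0 with RLE size factors, with library totals, with the stricter filter, with Lsm1 left out of the totals and with a length trend removed. It was 14 and 3 without the filter on low counts, 18 and 1 in DESeq2, 29 and 14 in limma on log2 (TPM + 1), 32 and 16 in limma on log2 (TPM + 0.1), and 0 and 0 with all 8 RIP-seq libraries or with single transcripts. Leaving out 1 library at a time gave 0 to 750 higher and 0 to 968 lower. For Lsm1 the fit gave 9.55 on the log2 scale (adjusted p of 1) over all 8 RIP-seq libraries 9.57 (adjusted p of 0.071) with single transcripts, and 9.22 to 9.86 when 1 library was left out. The cause of these differences was not tested.

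The replicate numbers were not taken as pairs in the main fit. The deviations of same-numbered libraries from their group means correlated at 0.119. With 2 libraries per group, the deviations of replicate 2 mirror those of replicate 1, so this value cannot decide whether the numbers mark pairs. With the replicate number as a block, 1 feature was higher and 0 were lower, and Lsm1 was at 9.53 on the log2 scale (adjusted p of 0.007), so the block changed no call. At an unadjusted p under 0.05 it gave 862 features, against 581 without it.

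Over all lists and alternatives, medians moved by less than the spread between replicates in 499 cases and by more in 71. Some list medians turned sign when 1 library was left out, over which two-cell genes ran from -0.06 to 0.35, replication-dependent histones from -0.06 to 0.09, oocyte identity from -0.08 to 0.08, sensors of foreign RNA from -0.02 to 0.23, heat shock chaperones from -0.11 to 0.06, the zygotic cell cycle from -0.08 to 0.02 and sperm markers from -0.08 to 0.11. Decapping genes ran from -0.06 to 0, and were at -0.01 without the filter and in DESeq2. Log2 fold changes of some single features turned sign too. Without the filter and in DESeq2, Lsm4 was -0.01 and Btg4 and Zbed3 were -0.02. In limma on TPM, Lsm4 was -0.05 and -0.06, Lsm8 was -0.02 and -0.03, Patl1 was -0.04 and -0.05, Xrn1 was -0.01 and -0.02, and Btg4 and Zbed3 were -0.07. Over all 8 RIP-seq libraries, Lsm4 was 0 and Btg4 and Zbed3 were -0.01. Suv39h2 was 0.01 with the stricter filter, and with a length trend removed Lsm7 was 0.04, Slbp and Suv39h2 were 0.02 and H3f3b was 0. With single transcripts Xrn1 was -0.29 and Suv39h2 was 0.04. When 1 library was left out, the lowest and highest values had opposite signs for Lsm2 (-0.28 to 0.01), Lsm5 (-0.54 to 0.19), Lsm6 (-0.14 to 0.01), Lsm7 (-0.14 to 0.06), Lsm8 (-0.3 to 0.39), Ddx6 (-0.32 to 0.02), Btg4 (-0.07 to 0.08), Suv39h2 (-0.04 to 0.02), Cbx1 (-0.3 to 0.06), H3f3a (-0.1 to 0.3), H3f3b (-0.11 to 0.03), Slbp (-0.06 to 0.02), Zbed3 (-0.05 to 0.05), Ddx58 (-0.04 to 0.31) and IAPEY3_LTR (-1.7 to 0.26).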
